A study of Mus musculus with 44 samples.

Results

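The liver at 4 h was represented by 7 of the 44 arrays of the series, 4 titled 2BE and 3 titled vehicle, and was described across 18193 genes. The arms were taken from the array titles. 2BE is 2-butoxyethanol, a glycol ether solvent that the liver oxidises to butoxyacetic acid, an agent that lyses rodent red blood cells. Each array held total RNA of a piece of the left lateral liver lobe of a B6C3F1 mouse, a hybrid laboratory strain, and every mouse, vehicle mice included, was anaesthetised with ketamine and acepromazine before cervical dislocation. A separate treatment label reads reduced oxygen for the 2BE arrays and control for the vehicle arrays. Dose, route, age and sex are not given in the sources used here, nor whether each array came from a mouse of its own. The p-values therefore measure spread between arrays. For the liver tests that spread was taken over all 16 liver arrays, those at 7 d included. For effects within the spleen it was taken over all spleen arrays, those at 7 d included. For comparison, the liver at 7 d had 5 2BE and 4 vehicle arrays and the spleen at 4 h had 4 and 4, of the same strain.

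The liver holds several cell types whose RNA is mixed in such a sample. Hepatocytes keep blood glucose up during fasting through gluconeogenesis, dispose of nitrogen through the urea cycle, make plasma proteins and bile acids, and oxidise foreign compounds. Insulin, glucagon, glucocorticoids, thyroid hormone and growth hormone set much of their transcription. Kupffer cells, the resident macrophages, and the endothelium line the sinusoids and are in direct contact with blood. In whole tissue, fewer cells of a type and less RNA per cell cannot be told apart.

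The tissue label was borne out by hepatocyte markers. All 7 measured hepatocyte markers lay above the median of all probe sets, and their summed intensity ran from 161110 to 170180 in the 2BE arrays and from 157350 to 168930 in the vehicle arrays. Albumin (Alb) had intensities of 42261, 41905, 39805 and 40170.2 in the 2BE arrays, against 42347, 43454 and 38213 in the vehicle arrays. Array medians ran from 41.2 to 42.5. Principal components were taken over the genes that varied most across the 7 arrays, not over all genes. On the first, which held 47.6% of the variance of those genes, the 2BE arrays lay at 1.29, 13.9, 9.48 and 21.6. The vehicle arrays lay at -17.7, -16.0 and -12.6. The arms therefore did not overlap on it, with 2BE replicate 1 nearest to the vehicle arrays. On the second component (27.5%), vehicle replicate 3 stood apart at -22.8, against 4.45 and 10.2 for the other two vehicle arrays. Here and below, values are given in replicate order, 1 to 4 for 2BE and 1 to 3 for vehicle, as intensities on a linear scale.

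In all, 821 of 18193 genes changed at an adjusted p under 0.05 in limma (4.51%). Of these, 590 were higher (3.24%) and 231 lower (1.27%) with 2BE, and 107 were at least 2-fold higher (0.588%) and 26 at least 2-fold lower (0.143%). The shares of 4.51% called, 3.24% higher and 1.27% lower are the background for all counts of called list members below. All 2BE arrays lay above all vehicle arrays in 1201 genes (6.6%) and below them in 816 (4.49%). The median log2 fold change of all genes was -0.017, and 44% of all genes had a positive value. Higher calls made up 71.9% of the called genes, against 57.6% after a further quantile normalization. The count of called genes was 466 without 2BE replicate 4, 484 without vehicle replicate 1, 471 with the replicate number as a block, and 176 when the fit held these 7 arrays alone. In the block fit 2BE replicate 4 has no vehicle array of its number and so adds nothing to the contrast. Values in brackets below are log2 fold changes, 2BE over vehicle, of intensity + 1, with limma's standard error (SE) after ±.

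The 10 largest rises included those of Thrsp, Noct and Plin4. Thrsp had intensities of 2425, 6440.3, 3933 and 10729 in the 2BE arrays, against 628, 1375 and 624 in the vehicle arrays (log2 fold change 2.64 ± 0.43 SE, adjusted p = 0.00234). Thrsp encodes a hepatic protein known to be induced by thyroid hormone and carbohydrate feeding. Noct had intensities of 711, 644, 636 and 660.1 in the 2BE arrays, against 153, 102 and 82.9 in the vehicle arrays (2.59 ± 0.51, adjusted p = 0.00713). Noct encodes nocturnin, a phosphatase with a rhythmic level in mouse liver, and its 2BE values lay within a narrow band. Plin4 had intensities of 242, 459.8, 437 and 584 in the 2BE arrays, against 90.3, 73.5 and 46.2 in the vehicle arrays (2.59 ± 0.46, adjusted p = 0.00398). Plin4 encodes a coat protein of lipid droplets, and in each of these genes every 2BE array lay above every vehicle array. The growth arrest genes Cdkn1a (2.93 ± 0.45) and Gadd45g (2.82 ± 0.49) stood in the same range.

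The largest falls after those of Arrdc3 and Socs2 were smaller in fold. Gprin3 had intensities of 146, 61.1, 83.0 and 62.9 in the 2BE arrays, against 281, 334 and 356 in the vehicle arrays (-1.95 ± 0.30, adjusted p = 0.00158). Hsd3b5 had intensities of 1284, 1092, 496 and 751 in the 2BE arrays, against 2571, 5335 and 1877 in the vehicle arrays (-1.80 ± 0.37, adjusted p = 0.0106). Hsd3b5 encodes a steroid dehydrogenase that is male-biased in mouse liver and known to depend on growth hormone. The mitochondrial carrier gene Slc25a30 had 679, 558, 671 and 319.7 in the 2BE arrays, against 2607, 1449 and 1161 in the vehicle arrays (-1.61 ± 0.33, adjusted p = 0.0108). Osgin1, a stress-responsive growth inhibitor, had 587, 384, 549 and 444 in the 2BE arrays, against 1108, 1603 and 2187 in the vehicle arrays (-1.70 ± 0.32, adjusted p = 0.00643). The arms did not overlap in any of these genes. Lower values also passed for Fbxo21, a ubiquitin ligase subunit (-1.33 ± 0.24), and the tight junction gene Cldn1 (-1.29 ± 0.29). Leaving out 1 array ended the calls of Hsd3b5 without vehicle replicate 2 (adjusted p = 0.0559), Slc25a30 without vehicle replicate 1 (adjusted p = 0.0637) and Cldn1 without vehicle replicate 3 (adjusted p = 0.0760). The block ended the calls of Slc25a30 (adjusted p = 0.0816) and Osgin1 (adjusted p = 0.0512).

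**Figure D1:**
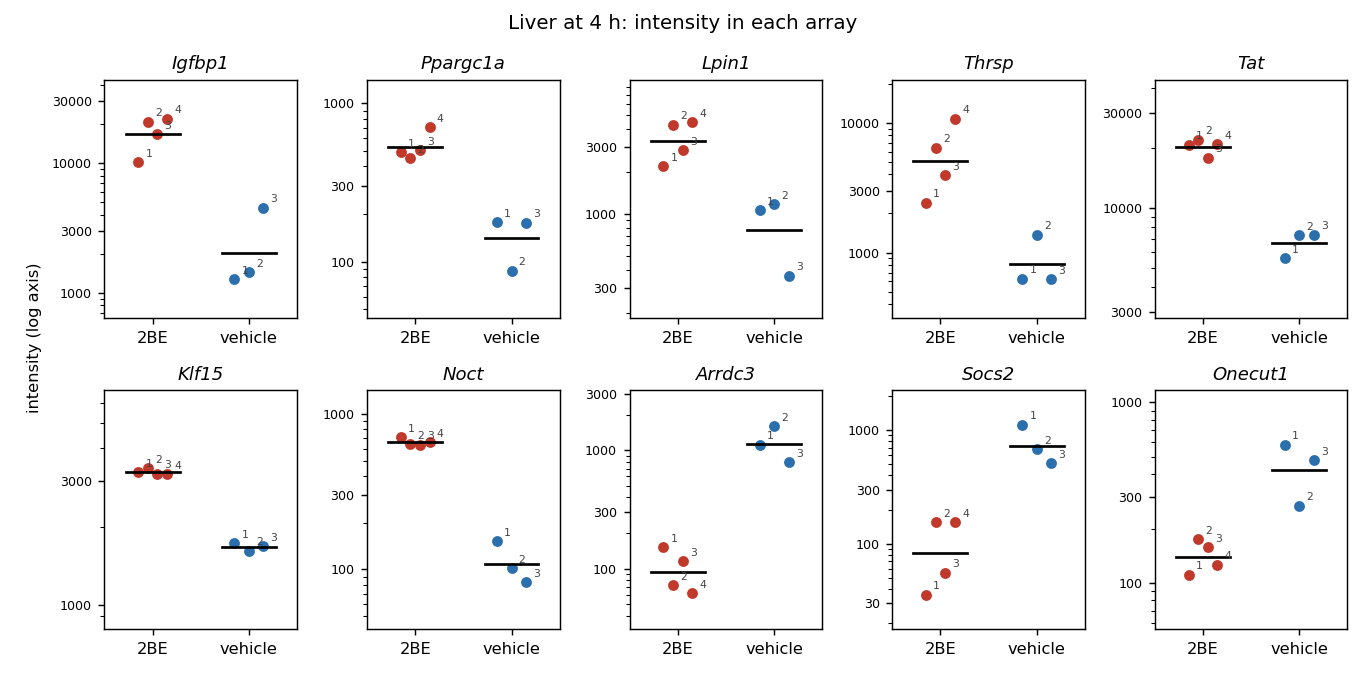
Intensity (log axis) of 10 genes in each liver array at 4 h. Points are arrays with their replicate number, 2BE left and vehicle right in each panel, and bars are means of log2(intensity + 1) turned back to intensity; in every panel the arms do not overlap, with 2BE above vehicle for Igfbp1, Ppargc1a, Lpin1, Thrsp, Tat, Klf15 and Noct and below it for Arrdc3, Socs2 and Onecut1.

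Genes of gluconeogenesis and fasting rose in part. Of 22 measured members, 8 rose and 0 fell (median log2 fold change 0.33, against -0.017 over all genes). Among the 8 were Ppargc1a, Lpin1, Klf15 and Cebpb, which act on transcription, while other regulators on the list, such as Hnf4a, did not pass. Ppargc1a had intensities of 492, 451, 505 and 705 in the 2BE arrays, against 178, 87.6 and 176 in the vehicle arrays (1.91 ± 0.28, adjusted p = 0.00134). Ppargc1a encodes the coactivator PGC-1alpha, which drives gluconeogenic and mitochondrial genes in fasting. Lpin1 had intensities of 2174, 4281, 2837 and 4469.7 in the 2BE arrays, against 1061, 1177 and 365 in the vehicle arrays (2.10 ± 0.37, adjusted p = 0.00404). Lpin1 encodes a phosphatidate phosphatase that also acts as a nuclear cofactor of PGC-1alpha. Klf15 had intensities of 3236, 3349, 3202 and 3178 in the 2BE arrays, against 1721, 1612 and 1683 in the vehicle arrays (0.95 ± 0.096, adjusted p = 0.000176). Klf15 encodes a transcription factor of amino acid use in fasting, and its 4 2BE arrays differed from each other by far less than from the vehicle arrays. Cebpb had intensities of 5997, 7213, 6688 and 6647 in the 2BE arrays, against 2110.2, 3124 and 2718 in the vehicle arrays (1.34 ± 0.20, adjusted p = 0.00158). Cebpb encodes a bZIP factor that acts on Pck1 and acute phase genes.

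Among the enzymes of the same list, 3 aminotransferase genes rose. Tat had intensities of 20769, 21996, 17889 and 20922 in the 2BE arrays, against 5596, 7317 and 7342 in the vehicle arrays (1.60 ± 0.19, adjusted p = 0.000286). Tat encodes tyrosine aminotransferase, a classical target of glucocorticoids and glucagon. The aspartate aminotransferase gene Got1 rose 2.21-fold (1.14 ± 0.24, adjusted p = 0.0111) and the alanine aminotransferase gene Gpt2 rose 1.67-fold (0.74 ± 0.18, adjusted p = 0.0243). Angptl4, a secreted inhibitor of lipoprotein lipase, rose 1.46-fold (0.54 ± 0.12, adjusted p = 0.0134). The genes of the committed gluconeogenic steps did not pass. Pck1, for phosphoenolpyruvate carboxykinase, had 11102, 8729.7, 7692 and 7906 in the 2BE arrays, against 6987, 7212 and 7059 in the vehicle arrays (0.31 ± 0.19, adjusted p = 0.429), so that its arms did not overlap but the difference was small. G6pc, for the glucose-6-phosphatase catalytic subunit, had 5300.3, 4642, 6796 and 4338 in the 2BE arrays, against 3078, 1615 and 4496 in the vehicle arrays, and its arms overlapped (0.88 ± 0.30, adjusted p = 0.112). Pdk4, the kinase that closes pyruvate dehydrogenase in fasting, stood at 1.17 ± 0.35, adjusted p = 0.0679, and the fasting hormone Fgf21 at -0.50 ± 0.19, adjusted p = 0.160. With 1 array left out, calls were lost for Gpt2 without 2BE replicate 2 or 4 or vehicle replicate 3 (adjusted p = 0.0581 to 0.100) and Angptl4 without vehicle replicate 1 or 3 (adjusted p = 0.0508 to 0.0655) and gained for G6pc without vehicle replicate 3 (adjusted p = 0.0317) and Pdk4 without 2BE replicate 1 (adjusted p = 0.0192). The block ended the calls of Got1, Gpt2 and Angptl4 (adjusted p = 0.102, 0.0866 and 0.0932) and gave one to Pdk4 (adjusted p = 0.0315).

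Of 20 genes of insulin signalling and IGF binding, 3 rose and 0 fell, and their median was 0.017. Igfbp1 had intensities of 10174, 20877, 16806 and 22094 in the 2BE arrays, against 1268, 1439 and 4533 in the vehicle arrays. Every 2BE array lay above the highest vehicle array, replicate 3, which itself lay well above the other two. Igfbp1 encodes a binding protein of insulin-like growth factors that insulin is known to repress (log2 fold change 3.05 ± 0.39, adjusted p = 0.000559). Foxo1 had intensities of 868, 1321, 1059.7 and 1504 in the 2BE arrays, against 696, 637 and 537 in the vehicle arrays (0.91 ± 0.17, adjusted p = 0.00643). Foxo1 encodes the forkhead factor that insulin signalling excludes from the nucleus. The pseudokinase gene Trib1 rose 1.78-fold (0.83 ± 0.14, adjusted p = 0.00326). The insulin receptor substrates did not pass, with Irs2 at 0.48 ± 0.15, adjusted p = 0.0979 and Irs1 at -0.27 ± 0.23, adjusted p = 0.613. With 1 array left out, a call was gained for Irs2 without 2BE replicate 1 (adjusted p = 0.0158), and 5 members were then higher and 1 lower. The block ended the call of Foxo1 (adjusted p = 0.0653). Other probe sets of Foxo1 stood at -0.070 to 1.07 and of Trib1 at 0.017.

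Among 14 glycogen genes 1 rose (7.14%, against 4.51% called over all genes). Ppp1r3b had intensities of 1193, 1219, 1407 and 1309.9 in the 2BE arrays, against 515, 654 and 814 in the vehicle arrays (0.98 ± 0.18, adjusted p = 0.00462). Ppp1r3b encodes the liver subunit that brings protein phosphatase 1 to glycogen, and its arms did not overlap. Without 2BE replicate 1, Ppp1r3c also passed higher (1.21, adjusted p = 0.0115) and Stbd1 lower (-0.63, adjusted p = 0.0447), and without vehicle replicate 3 Gys2 and Ugp2 passed lower (-0.62, adjusted p = 0.0305 and -0.41, adjusted p = 0.00945). Of 19 genes of glycolysis and the TCA cycle 2 rose and 1 fell. The fumarase gene Fh1 had 7389, 9342, 8897 and 9763 in the 2BE arrays, against 4472, 5001 and 5815 in the vehicle arrays (0.80 ± 0.11, adjusted p = 0.000814). The isocitrate dehydrogenase subunit gene Idh3a rose 1.66-fold (0.73 ± 0.11, adjusted p = 0.00158), although its other probe sets stood at -0.037 to 0.49. Slc2a2 had intensities of 2909, 2835, 2736 and 3087 in the 2BE arrays, against 4316, 4508 and 3804 in the vehicle arrays (-0.54 ± 0.081, adjusted p = 0.00155). Slc2a2 encodes the hepatocyte glucose transporter GLUT2, and all of its 2BE arrays lay below the vehicle arrays.

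Igfbp1, Thrsp and Noct are shown with the 250 bases before their annotated start because their promoter windows held the insulin response core, CAAAACA or its reverse complement TGTTTTG, which forkhead factors such as FOXO1 are known to bind. Sequences are from RefSeq (GRCm38.p6), 5′ to 3′ on the gene's strand, and capitals mark the core. The windows are chr11:7197537-7197786, plus strand for Igfbp1, chr7:97417551-97417800, minus strand for Thrsp and chr3:51224197-51224446, plus strand for Noct.
Igfbp1: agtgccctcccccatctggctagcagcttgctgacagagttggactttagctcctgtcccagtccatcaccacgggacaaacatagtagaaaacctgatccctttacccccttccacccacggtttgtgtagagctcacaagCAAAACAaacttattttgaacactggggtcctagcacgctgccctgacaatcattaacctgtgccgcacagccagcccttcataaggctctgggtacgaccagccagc
Thrsp: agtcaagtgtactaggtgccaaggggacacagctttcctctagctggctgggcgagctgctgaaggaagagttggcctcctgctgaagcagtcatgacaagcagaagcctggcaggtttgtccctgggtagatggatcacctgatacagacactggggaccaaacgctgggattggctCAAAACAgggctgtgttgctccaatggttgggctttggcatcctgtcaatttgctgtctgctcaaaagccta
Noct: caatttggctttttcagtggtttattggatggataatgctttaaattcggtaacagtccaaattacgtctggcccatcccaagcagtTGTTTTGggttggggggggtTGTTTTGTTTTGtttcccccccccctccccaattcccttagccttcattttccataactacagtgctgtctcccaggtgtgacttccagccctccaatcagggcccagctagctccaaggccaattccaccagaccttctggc
The core began 108 bases before the start in Igfbp1 and 72 before it in Thrsp, and 3 matches, of which a pair overlapped, began 163, 143 and 138 bases before it in Noct. Of the 20 genes with the largest rises and falls, 17 had a window and 3 held the core. Of the 470 genes with a window that rose, 4.68% held the core, as did 5.85% of 188 that fell and 5.02% of all 14452 tested. The windows of the same 17 genes held no STAT core (TTCNNNGAA), no heat shock core (GAANNTTC) and no glucocorticoid receptor half-site (AGAACA or TGTTCT), and that of Osgin1 held an AP-1 core (TGANTCA). Over the 14452 genes tested, these were held by 7.42%, 6.62%, 14.7% and 6.70% of windows.

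Genes of amino acid breakdown and the urea cycle rose in part, 7 of 29 with 0 lower and a median of 0.20. Among the 7 are Tat and Got1, which were also counted with the genes of gluconeogenesis and fasting. Aass had intensities of 7752, 10809, 10367 and 10472 in the 2BE arrays, against 4624, 4043 and 4251 in the vehicle arrays (1.18 ± 0.13, adjusted p = 0.000247). Aass encodes the first enzyme of lysine breakdown in mitochondria. Ass1 had intensities of 410.4, 655, 506 and 370 in the 2BE arrays, against 172, 163 and 231 in the vehicle arrays (1.34 ± 0.25, adjusted p = 0.00607). Ass1 encodes argininosuccinate synthase of the urea cycle and was read here by a single probe set of modest intensity. Slc25a15 had intensities of 8659, 11352, 12078 and 11654 in the 2BE arrays, against 5956, 5325 and 6793 in the vehicle arrays (0.86 ± 0.12, adjusted p = 0.000814). Slc25a15 encodes the carrier that brings ornithine into mitochondria for the cycle. The argininosuccinate lyase gene Asl rose 1.62-fold (0.69 ± 0.10, adjusted p = 0.00134). In all 4 genes the arms did not overlap. Hgd, for homogentisate dioxygenase of tyrosine breakdown, passed by a small margin with overlapping arms (0.31 ± 0.083, adjusted p = 0.0430), and Cps1, which encodes the first enzyme of the urea cycle, did not pass (0.26 ± 0.077, adjusted p = 0.0716). In fits without 1 array, a call was lost for Hgd without 2BE replicate 1, 3 or 4 or vehicle replicate 2 or 3 (adjusted p = 0.0503 to 0.153) and gained for Cps1 without vehicle replicate 2 (adjusted p = 0.0378), and the block ended the call of Hgd (adjusted p = 0.153).

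The lipid lists other than cholesterol synthesis had no called member; Lpin1, Angptl4, Thrsp and Plin4, given above, are not on them. Of 21 lipogenesis genes, 24 genes of fatty acid oxidation and PPARa targets and 18 of lipoproteins and lipid uptake, 0 passed in limma (medians 0.10, -0.039 and -0.0096), and 3, 3 and 2 had an unadjusted p under 0.05. Fasn, for fatty acid synthase, stood at 0.32 ± 0.31, adjusted p = 0.678 and its regulator Srebf1 at -0.36 ± 0.21, adjusted p = 0.419. Cpt1a, which controls entry of fatty acids into mitochondria, stood at -0.10 ± 0.14, adjusted p = 0.788. The PPARa targets varied widely within an arm. Cyp4a14 had intensities of 10178, 8156, 10319 and 3313 in the 2BE arrays, against 12237, 4607 and 947 in the vehicle arrays (0.95 ± 0.82, adjusted p = 0.622). Vnn1 had intensities of 1211, 875, 889.9 and 161 in the 2BE arrays, against 1948, 1388 and 1408 in the vehicle arrays (-1.32 ± 0.52, adjusted p = 0.177). The lowest 2BE value of both Cyp4a14, a fatty acid hydroxylase, and Vnn1, a pantetheinase, was that of replicate 4. In fits without 1 array, Mlxipl passed lower (-0.56, adjusted p = 0.0448), as did Bdh1 and Mlycd (-0.58, adjusted p = 0.0402 and -0.28, adjusted p = 0.0485), all without 2BE replicate 1, and Dgat1 passed higher without vehicle replicate 1 (0.42, adjusted p = 0.0106). Angptl8 passed lower without vehicle replicate 1 (-1.40, adjusted p = 0.0453) and Abcg1 without vehicle replicate 2 (-0.41, adjusted p = 0.0205).

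Of 20 cholesterol synthesis genes 2 rose (10%, against 4.51% called over all genes, median 0.22). Sqle, for squalene epoxidase, had 1381, 1661, 1300.3 and 2222 in the 2BE arrays, against 515, 960.1 and 917 in the vehicle arrays (1.06 ± 0.25, adjusted p = 0.0211). Hsd17b7, which acts later in the pathway, rose 1.58-fold (0.66 ± 0.16, adjusted p = 0.0307). The arms were apart in both, but with 1 array left out the call was lost for Sqle without 2BE replicate 4 or vehicle replicate 1 (adjusted p = 0.0703 to 0.114) and Hsd17b7 without 2BE replicate 1, 2 or 4 or vehicle replicate 3 (adjusted p = 0.0524 to 0.131), and the block ended both calls (adjusted p = 0.0892 for Sqle and 0.0789 for Hsd17b7). Of 25 bile acid genes 0 passed in limma, with 6 at an unadjusted p under 0.05. Cyp7a1 had intensities of 256, 230.2, 164 and 229.8 in the 2BE arrays, against 1254, 620.1 and 190 in the vehicle arrays (-1.28 ± 0.55, adjusted p = 0.224). Cyp7a1 encodes the rate-limiting enzyme of bile acid synthesis, and its vehicle array 3 lay within the 2BE range while the other two lay far above it. Without vehicle replicate 3, 3 bile acid genes passed lower: Cyp7a1 (-2.02, adjusted p = 0.0352), the FGF coreceptor Klb (-0.78, adjusted p = 0.00702) and the bile acid uptake transporter Slc10a1 (-0.31, adjusted p = 0.0482). Without 2BE replicate 1, Slc10a1 and Slco1b2 passed lower (-0.28, adjusted p = 0.0425 and -0.43, adjusted p = 0.0103).

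Among 18 genes of growth hormone, STAT5 and IGF, 0 rose and 3 fell, with a median of -0.11. Socs2 had intensities of 35.5, 155, 55.6 and 154 in the 2BE arrays, against 1122, 684 and 512 in the vehicle arrays. The highest 2BE value was far below the lowest vehicle value. Socs2 encodes a suppressor of cytokine signalling that growth hormone induces through STAT5 (log2 fold change -3.13 ± 0.48, adjusted p = 0.00163, other probe sets -3.10 to -0.011). Onecut1 had intensities of 111, 174, 157 and 126 in the 2BE arrays, against 582, 267 and 477 in the vehicle arrays (-1.58 ± 0.30, adjusted p = 0.00608, other probe set -1.89). Onecut1 encodes the hepatocyte factor HNF6, another gene that growth hormone is known to induce, and its arms did not overlap. Igfals, for the acid-labile subunit that stabilises circulating IGF-I, passed by a small margin (-0.63 ± 0.17, adjusted p = 0.0454). Igf1 had intensities of 7734, 7958, 7514 and 8609.9 in the 2BE arrays, against 8161, 8161 and 7270.4 in the vehicle arrays. These values differed by less than the spread between arrays, as did those of the growth hormone receptor gene Ghr, and neither passed (Igf1 0.017 ± 0.069, adjusted p = 0.945; Ghr -0.054 ± 0.069, adjusted p = 0.769). Cish, a STAT5-induced relative of Socs2, had 118, 203, 105 and 174 in the 2BE arrays, against 538, 179 and 174 in the vehicle arrays, with overlapping arms (-0.82 ± 0.44, adjusted p = 0.359). Leaving out 1 array ended the call of Igfals without 2BE replicate 2 or 4 or vehicle replicate 1 or 2 (adjusted p = 0.0871 to 0.202), and the block ended it as well (adjusted p = 0.135).

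In the glucocorticoid response list 12 of 18 members rose, Tat again among them, with 0 lower and a median of 0.98. This called share (66.7%, against 4.51% over all genes) was the highest among the lists. The lists were chosen with earlier results of these data known, so this rank is no test of a glucocorticoid response. Cebpd had intensities of 346, 435, 503 and 644 in the 2BE arrays, against 79.0, 110.2 and 129.6 in the vehicle arrays (2.16 ± 0.33, adjusted p = 0.00158). Cebpd encodes a bZIP factor of stress and acute phase transcription, and its other probe set stood at 0.32. Sgk1 had intensities of 939, 1037, 2162 and 1266 in the 2BE arrays, against 186, 188 and 721 in the vehicle arrays (2.12 ± 0.41, adjusted p = 0.00703). The lowest 2BE value of Sgk1, a steroid-induced kinase, lay above the highest vehicle value, that of replicate 3. Fkbp5 had intensities of 2122, 2997, 2954 and 3242 in the 2BE arrays, against 1484, 1063 and 1303 in the vehicle arrays (1.14 ± 0.24, adjusted p = 0.0134). Fkbp5 encodes a chaperone partner that restrains the glucocorticoid receptor. Dusp1 had intensities of 1012, 1498, 1383 and 1517 in the 2BE arrays, against 249, 374 and 542 in the vehicle arrays (1.85 ± 0.27, adjusted p = 0.00134). Dusp1 encodes a phosphatase of MAP kinases, and its arms did not overlap. Of the others, Pim3, a serine/threonine kinase, rose 2.85-fold (1.51 ± 0.29, adjusted p = 0.00616), Tiparp, an ADP-ribosyltransferase, rose 2.52-fold (1.34 ± 0.31, adjusted p = 0.0212) and Zbtb16, a zinc finger factor, rose 2.40-fold (1.26 ± 0.22, adjusted p = 0.00372). Tsc22d3, which encodes the glucocorticoid-induced leucine zipper, rose 1.80-fold (0.85 ± 0.19, adjusted p = 0.0179). The receptor gene itself, Nr3c1, did not pass (-0.30 ± 0.12, adjusted p = 0.203). Neither did Mt1 and Mt2, which are key genes of the list, although the other probe set of Mt1 stood at 3.07. Single arrays decided the calls of Fkbp5 without vehicle replicate 2 (adjusted p = 0.0624), Tiparp without 2BE replicate 2 or vehicle replicate 1 or 3 (adjusted p = 0.0537 to 0.0740) and Tsc22d3 without vehicle replicate 1 or 2 (adjusted p = 0.0628 to 0.0730), and 7 members passed without vehicle replicate 1. When the fit held these 7 arrays alone, 5 members passed.

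Of 10 thyroid hormone response genes 4 rose and 0 fell (median 0.25). Besides Thrsp (2.64 ± 0.43) they were Bcl3 (1.04 ± 0.21, adjusted p = 0.00976), a coregulator of NF-kB, the thyroid hormone and aromatic amino acid transporter gene Slc16a10 (0.78 ± 0.19, adjusted p = 0.0282) and the Kruppel-like factor gene Klf9 (0.27 ± 0.074, adjusted p = 0.0477), which also stands on the glucocorticoid list. The arms were apart in all 4 genes. The other 6 measured members did not pass, among them Dio1, a key gene of the list, and Me1. In fits without 1 array, calls were lost for Bcl3 without vehicle replicate 1 (adjusted p = 0.0568), Slc16a10 without 2BE replicate 3 or 4 or vehicle replicate 1 or 2 (adjusted p = 0.0769 to 0.123) and Klf9 without 2BE replicate 2, 3 or 4 or vehicle replicate 1 or 3 (adjusted p = 0.0674 to 0.197), leaving 2 members without 2BE replicate 3 or 4 and 1 without vehicle replicate 1, and the block ended that of Klf9 (adjusted p = 0.144).

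Nutrient-sensing genes showed 2 strong single changes within lists of which few other members passed. Ddit4 had intensities of 142, 759.7, 671 and 1396 in the 2BE arrays, against 70.0, 86.0 and 106 in the vehicle arrays. 2BE replicate 1 lay nearest the vehicle range, and the other 2BE values lay far above it. Ddit4 encodes REDD1, an inhibitor of the growth kinase complex mTORC1 (log2 fold change 2.70 ± 0.60, adjusted p = 0.0161). Of 23 genes of mTOR, sestrins and growth control only 1 other passed, Rictor, a subunit of mTORC2 (0.30 ± 0.073, adjusted p = 0.0275), and the sestrin gene Sesn2 stood at 0.070 ± 0.065, adjusted p = 0.647. The 2 called members made up 8.7% of the list, against 4.51% called over all genes. Leaving out 1 array ended the calls of Ddit4 without 2BE replicate 4 or vehicle replicate 1 (adjusted p = 0.0525 to 0.0664) and Rictor without 2BE replicate 2 or 4 or vehicle replicate 1 or 3 (adjusted p = 0.0571 to 0.107), and the block ended both (adjusted p = 0.0643 for Ddit4 and 0.0641 for Rictor). Arrdc3 had intensities of 152, 72.4, 115 and 61.9 in the 2BE arrays, against 1115, 1597 and 793 in the vehicle arrays. Arrdc3 encodes an alpha-arrestin that guides ubiquitin ligases to receptors, and every 2BE value lay far below the lowest vehicle value (log2 fold change -3.56 ± 0.70, adjusted p = 0.00815). The other 6 measured genes of the list did not pass. Txnip, the glucose-responsive relative of Arrdc3, had 525, 505, 511 and 493 in the 2BE arrays, against 619, 938 and 678 in the vehicle arrays (-0.53 ± 0.20, adjusted p = 0.160), and Arrdc4 stood at 0.15 ± 0.18, adjusted p = 0.743.

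In the amino acid and integrated stress response, 5 of 24 genes rose and 0 fell (median 0.22). Among the 5 is Gpt2, which was also counted with the genes of gluconeogenesis and fasting. Slc38a2 had intensities of 2986, 5351, 3190.2 and 5636 in the 2BE arrays, against 1315, 1375 and 1099 in the vehicle arrays (1.71 ± 0.35, adjusted p = 0.0100). Slc38a2 encodes a transporter of neutral amino acids that amino acid shortage induces. Slc3a2, the heavy chain of several amino acid exchangers, rose 1.33-fold (0.42 ± 0.079, adjusted p = 0.00614), and Mthfd2, of mitochondrial folate metabolism, rose 1.87-fold at low intensity (0.90 ± 0.20, adjusted p = 0.0138, other probe set 0.11). The stress factor gene Atf3 rose 1.56-fold (0.64 ± 0.12, adjusted p = 0.00618). Asns, for asparagine synthetase, and Ddit3, for the stress factor CHOP, are defining targets of the response and did not pass (Asns 0.29 ± 0.41, adjusted p = 0.796; Ddit3 0.15 ± 0.12, adjusted p = 0.617). The block ended the calls of Slc38a2 (adjusted p = 0.0593) and Atf3 (adjusted p = 0.0512), leaving 2 of the list, and 3 passed without vehicle replicate 3. Leaving out 1 array ended the call of Mthfd2 without vehicle replicate 1 or 3 (adjusted p = 0.0606 to 0.0614).

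**Figure D2:**
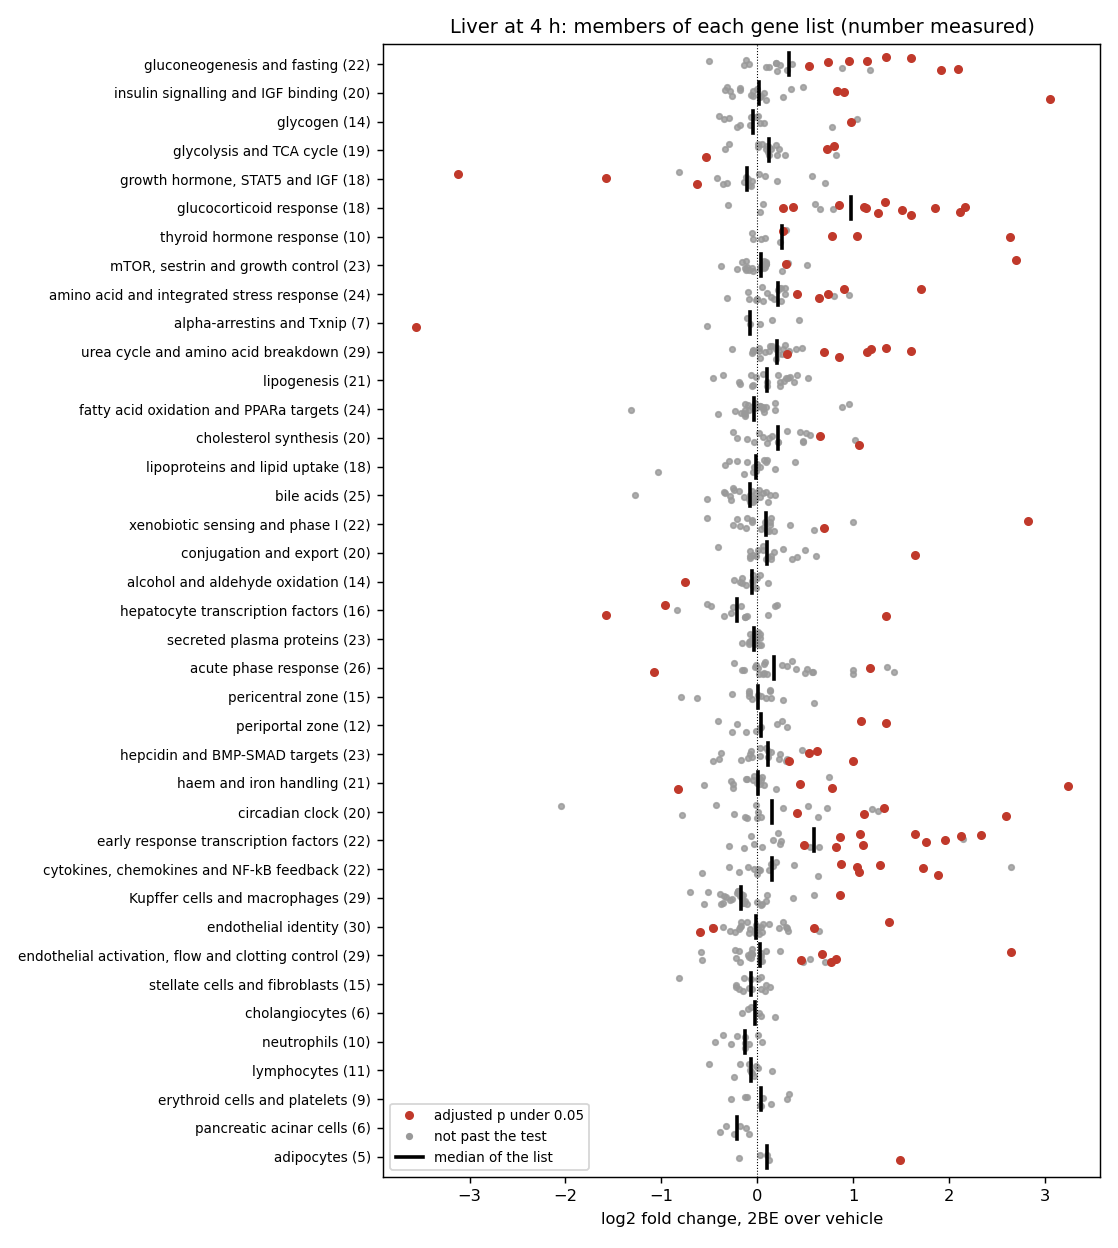
Log2 fold change of 2BE over vehicle for each measured member of 39 gene lists, with the number measured in brackets. Each point is a gene, red where it passed at an adjusted p under 0.05, and the black bar is the list's median; the glucocorticoid response and early response lists have medians of 0.98 and 0.60, and the secreted plasma protein list has no member past 0.16 in either direction.

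Genes of secreted plasma proteins had values close to 0. Of 23 such genes 0 passed in limma, 0 had an unadjusted p under 0.05, and their log2 fold changes ran from -0.16 to 0.040. Among 16 hepatocyte transcription factors, 1 rose and 2 fell, with a median of -0.21. Cebpa had intensities of 2324, 1501, 1857 and 1686 in the 2BE arrays, against 3482, 3796 and 3340 in the vehicle arrays (-0.96 ± 0.16, adjusted p = 0.00245). Cebpa encodes C/EBPalpha, a factor of the differentiated hepatocyte, and its arms did not overlap, whereas its relative Cebpb was higher (1.34 ± 0.20). Hnf4a, a central hepatocyte factor, had arms that did not overlap but did not pass (0.21 ± 0.075, adjusted p = 0.133). Of 15 pericentral genes 0 passed in limma and 3 had an unadjusted p under 0.05, with Glul, for glutamine synthetase, at 0.14 ± 0.10, adjusted p = 0.537. Of 12 periportal genes 2 rose, Ass1 (1.34 ± 0.25) and the ethanolamine phosphate lyase gene Etnppl (1.09 ± 0.27, adjusted p = 0.0294, other probe set -0.085). Leaving out 1 array ended the call of Etnppl without 2BE replicate 1 or 4 (adjusted p = 0.0568 to 0.0851). Without 2BE replicate 1, the pericentral genes Rnf43 and Ahr passed (-0.95, adjusted p = 0.0404 and 0.66, adjusted p = 0.0465).

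Among genes that handle foreign compounds, Cyp2b10 had the largest rise. Of 22 genes of xenobiotic sensing and phase I, 2 rose (9.09%, against 4.51% called over all genes). Cyp2b10 had intensities of 2005, 1178, 3006 and 1105 in the 2BE arrays, against 167, 391 and 201 in the vehicle arrays. Cyp2b10 encodes a cytochrome P450 induced through the receptor CAR, and the lowest 2BE value was well above the highest vehicle value (log2 fold change 2.82 ± 0.44, adjusted p = 0.00194, other probe sets 3.21). The flavin monooxygenase gene Fmo5 rose 1.62-fold (0.69 ± 0.11, adjusted p = 0.00240). Cyp2e1, the ethanol-oxidising P450, did not pass (-0.055 ± 0.053, adjusted p = 0.666). Among 20 conjugation and export genes 1 rose (5%). Nnmt had intensities of 7797, 10887, 11769 and 13317 in the 2BE arrays, against 2623, 2089 and 7419 in the vehicle arrays (1.64 ± 0.38, adjusted p = 0.0208). Nnmt encodes nicotinamide N-methyltransferase, and vehicle replicate 3 lay close below the lowest 2BE array. Of 14 genes of alcohol and aldehyde oxidation, the step that turns 2BE into butoxyacetic acid, 1 fell (7.14%). Adh4 had intensities of 1539, 1313, 1335 and 1126 in the 2BE arrays, against 1894, 1863 and 3111 in the vehicle arrays (-0.75 ± 0.16, adjusted p = 0.0136). Adh4 encodes an alcohol dehydrogenase, and its arms did not overlap. In fits without 1 array the call was lost for Nnmt without 2BE replicate 4 or vehicle replicate 1 or 2 (adjusted p = 0.0650 to 0.102), and the block ended those of Nnmt and Adh4 (adjusted p = 0.0523 and 0.0614).

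Acute phase genes varied between arrays of both arms. Of 26 members, 1 rose and 1 fell (7.69% called, against 4.51% over all genes). Il1r1 had intensities of 2737, 4168, 3106 and 3769 in the 2BE arrays, against 1255, 1568 and 1728 in the vehicle arrays (1.18 ± 0.23, adjusted p = 0.00684). Il1r1 encodes the interleukin-1 receptor, and its arms did not overlap. Lifr had intensities of 478, 539, 593 and 654 in the 2BE arrays, against 1270.2, 995 and 1309 in the vehicle arrays (-1.07 ± 0.16, adjusted p = 0.00134). Lifr encodes the receptor of leukaemia inhibitory factor, and its other probe sets, at -0.21 to -0.0076, did not follow the fall. The secreted reactants spread far more within an arm than between arms. Saa3 had intensities of 1993, 1040.1, 16562 and 3735 in the 2BE arrays, against 8428, 313 and 19064 in the vehicle arrays (-0.13 ± 1.32, adjusted p = 0.978). Orm2 had intensities of 3140.3, 2683, 17638 and 15409 in the 2BE arrays, against 9251, 553 and 19253 in the vehicle arrays (0.58 ± 1.29, adjusted p = 0.884). Lcn2 had intensities of 3819.9, 12543, 15983 and 18265 in the 2BE arrays, against 8010, 463 and 20588 in the vehicle arrays (1.36 ± 1.40, adjusted p = 0.695). In these 3 genes vehicle replicate 2 was the lowest of all 7 arrays and vehicle replicate 3 the highest.

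The neutrophil marker gene S100a8 was also highest in vehicle replicate 3, with 56.4, 59.9, 252 and 290.5 in the 2BE arrays, against 62.1, 98.1 and 807 in the vehicle arrays (-0.44 ± 0.73, adjusted p = 0.832). The summed intensity of 10 neutrophil markers, 0 of which passed in limma and 0 of which had an unadjusted p under 0.05, ran from 397 to 899 in the 2BE arrays and from 417 to 1913 in the vehicle arrays, and Cxcr2, Mmp8, Mmp9, Ngp, Camp, Ltf and Itgam lay below the median of all probe sets. Their part in the acute phase values was not tested. For a pair of cytokine-response genes the call turned on vehicle replicate 3. Steap4 had intensities of 4339, 7749, 5178 and 8975 in the 2BE arrays, against 1125, 1966 and 5744 in the vehicle arrays (1.43 ± 0.43, adjusted p = 0.0765). Osmr had intensities of 123, 140.1, 164 and 271 in the 2BE arrays, against 42.1, 59.5 and 223 in the vehicle arrays (1.00 ± 0.40, adjusted p = 0.183). Without vehicle replicate 3 the metalloreductase gene Steap4 and the oncostatin M receptor gene Osmr passed, at 2.08 and 1.71 (adjusted p = 0.00657 and 0.00234), and 4 members of the list were higher.

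**Figure D3:**
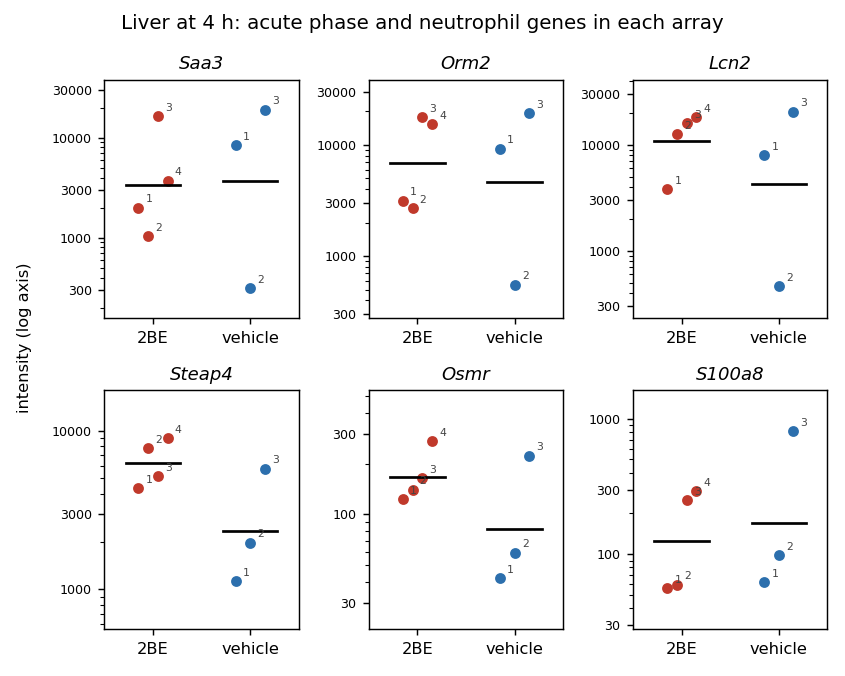
Intensity (log axis) of 5 acute phase genes and the neutrophil gene S100a8 in each liver array at 4 h. Points are arrays with their replicate number, 2BE left and vehicle right, and bars are means of log2(intensity + 1) turned back to intensity; vehicle replicate 3 is the highest vehicle array in every panel, and the arms overlap in all 6 genes.

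Among 21 genes of haem and iron handling, 3 rose and 1 fell. Hmox1 had intensities of 695, 711, 1199 and 1305 in the 2BE arrays, against 92.0, 84.7 and 122 in the vehicle arrays. All 2BE arrays lay far above all vehicle arrays. Hmox1 encodes the haem-degrading enzyme haem oxygenase 1 (log2 fold change 3.24 ± 0.21, adjusted p = 9.1e-07). Flvcr1, a haem exporter, rose 1.72-fold (0.78 ± 0.14, adjusted p = 0.00404, other probe set -0.093), and Ncoa4, the receptor for autophagy of ferritin, rose 1.36-fold (0.44 ± 0.085, adjusted p = 0.00671). Slc40a1 had intensities of 1507, 1135, 2102 and 1446 in the 2BE arrays, against 3563, 1985 and 2699 in the vehicle arrays (-0.82 ± 0.19, adjusted p = 0.0230). Slc40a1 encodes the iron exporter ferroportin and is expressed strongly in Kupffer cells, and its arms overlapped. Of 23 genes of hepcidin and BMP-SMAD signalling 4 rose: the signal transducer Smad1 (0.62 ± 0.10, adjusted p = 0.00259), its inhibitor Smad7 (0.54 ± 0.15, adjusted p = 0.0494), the receptor Bmpr2 (0.33 ± 0.063, adjusted p = 0.00656) and the target Id1 (1.00 ± 0.27, adjusted p = 0.0471). The hepcidin gene Hamp had 23824, 24999.9, 23351 and 25264 in the 2BE arrays, against 19978, 20721 and 18242 in the vehicle arrays (0.31 ± 0.36, adjusted p = 0.731), so that its arms were apart without passing. Its SE was taken over all 16 liver arrays and so does not describe the spread at 4 h alone. Under 16 other settings of the limma fit, Hamp ran from 0.22 to 0.35 with adjusted p from 0.101 to 0.833, and it never passed. Single arrays decided the calls of Slc40a1 without 2BE replicate 2 or 4 or vehicle replicate 1 or 3 (adjusted p = 0.0572 to 0.123), Smad7 without 2BE replicate 2, 3 or 4 or vehicle replicate 1 or 3 (adjusted p = 0.0518 to 0.182) and Id1 without 2BE replicate 3 or 4 or vehicle replicate 1 or 3 (adjusted p = 0.0829 to 0.194). The block ended those of Smad7, Bmpr2 and Id1 (adjusted p = 0.142, 0.0642 and 0.189), leaving 1 of the 23, and 2 passed without 2BE replicate 3 or 4 or vehicle replicate 1 or 3.

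Of 20 circadian clock genes 4 rose and 0 fell. Besides Noct (2.59 ± 0.51) they were Nfil3, a repressor of D-box genes, the period gene Per1 and the nuclear receptor gene Rora. Nfil3 had intensities of 905, 1306, 1572 and 1501 in the 2BE arrays, against 409, 458 and 739.8 in the vehicle arrays (1.32 ± 0.19, adjusted p = 0.00115). Per1 stood at 1.12 ± 0.25, adjusted p = 0.0189 and Rora at 0.42 ± 0.10, adjusted p = 0.0251. The arms were apart in all of them. Dbp had intensities of 562, 144, 146 and 82.0 in the 2BE arrays, against 1306, 1193 and 249.6 in the vehicle arrays (-2.04 ± 0.62, adjusted p = 0.0759). Dbp encodes a D-box activator and had the largest negative value of the list without passing. The sources used here do not give the time of day of the harvests. In fits without 1 array, calls were lost for Per1 without 2BE replicate 4 or vehicle replicate 1 or 3 (adjusted p = 0.0568 to 0.0867) and Rora without 2BE replicate 3 or 4 or vehicle replicate 2 or 3 (adjusted p = 0.0637 to 0.111), leaving 2 members without 2BE replicate 4, and gained for Dbp without 2BE replicate 1 or vehicle replicate 3 (adjusted p = 0.0114 to 0.0152). The block ended those of Per1 and Rora (adjusted p = 0.110 and 0.142).

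Early response transcription factors rose in part, 10 of 22 with 0 lower and a median of 0.60. Btg2 had intensities of 609.7, 1340.3, 1069.9 and 1989.9 in the 2BE arrays, against 218, 214 and 251 in the vehicle arrays (2.33 ± 0.31, adjusted p = 0.000814, other probe set 2.48). Btg2 encodes an antiproliferative coregulator. Jun had intensities of 309, 430, 393 and 448 in the 2BE arrays, against 94.3, 93.5 and 79.6 in the vehicle arrays (2.13 ± 0.31, adjusted p = 0.00137, other probe set 1.43). Fos had intensities of 92.1, 71.2, 99.9 and 215 in the 2BE arrays, against 21.9, 25.9 and 35.5 in the vehicle arrays (1.96 ± 0.37, adjusted p = 0.00647). Jun and Fos encode subunits of AP-1, and every 2BE array lay above every vehicle array in all 3 genes. The stress-induced gene Ier3 rose 2.15-fold (1.10 ± 0.23, adjusted p = 0.0120). Zfp36 had intensities of 1829, 2307, 1639 and 2011 in the 2BE arrays, against 579, 734 and 548 in the vehicle arrays (1.65 ± 0.26, adjusted p = 0.00169). Zfp36 encodes tristetraprolin, which destabilises cytokine mRNAs. Junb had intensities of 615, 558, 472 and 720.4 in the 2BE arrays, against 123, 285 and 143 in the vehicle arrays (1.76 ± 0.37, adjusted p = 0.0115). Junb encodes another AP-1 subunit, and the arms of Zfp36 and Junb were apart. Klf6, a Kruppel-like factor of injury responses, rose 2.11-fold (1.07 ± 0.16, adjusted p = 0.00158). Of 22 genes of cytokines, chemokines and NF-kB feedback, 6 rose and 0 fell (median 0.16). Cxcl2 had intensities of 57.2, 56.0, 52.6 and 123 in the 2BE arrays, against 13.7, 18.3 and 21.4 in the vehicle arrays (1.89 ± 0.21, adjusted p = 0.000255). Cxcl2 encodes a chemokine for neutrophils, and its arms were apart at low intensity. Tnfaip3 had intensities of 255, 105, 134 and 157 in the 2BE arrays, against 45.0, 58.6 and 36.2 in the vehicle arrays (1.73 ± 0.21, adjusted p = 0.000433, other probe set 0.49). Tnfaip3 encodes A20, an enzyme that restrains NF-kB. The NF-kB inhibitor gene Nfkbia and its relative Nfkbiz rose and passed at 0.87 ± 0.14, adjusted p = 0.00194 for Nfkbia and 1.28 ± 0.25, adjusted p = 0.00701 for Nfkbiz, and the chemokine gene Ccl3 rose 2.09-fold at low intensity (1.07 ± 0.18, adjusted p = 0.00264). Cxcl1 had intensities of 9749, 8339.8, 5727 and 10741 in the 2BE arrays, against 411, 3061 and 1930.3 in the vehicle arrays (2.64 ± 0.77, adjusted p = 0.0646). Cxcl1 encodes a neutrophil attractant, and its arms were apart without passing. With 1 array left out, a call was lost for Junb without vehicle replicate 1 (adjusted p = 0.0634) and gained for Cxcl1 without vehicle replicate 2 (adjusted p = 0.0487).

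**Figure D4:**
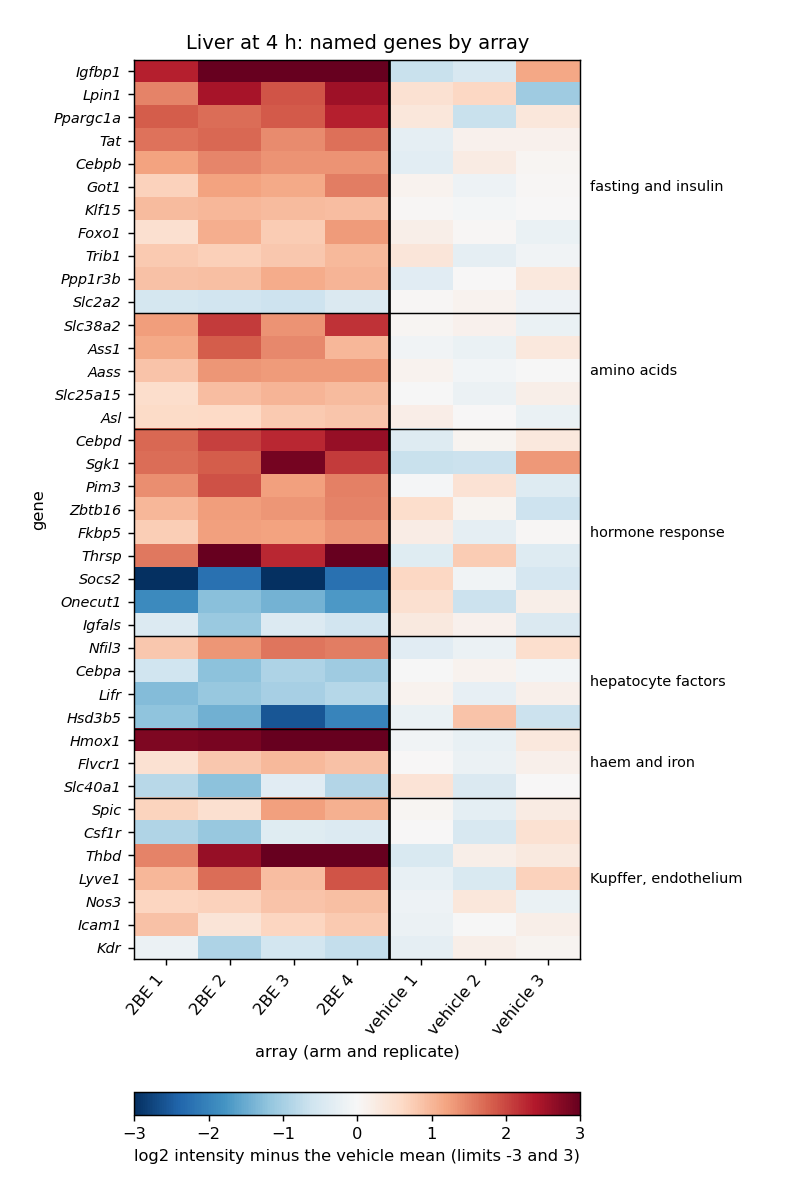
Log2 intensity of named genes in each liver array at 4 h, minus the mean of the 3 vehicle arrays. Columns are arrays, 2BE left and vehicle right of the line, and rows are genes by group; Socs2 is below the vehicle mean in all 4 2BE arrays and Igfbp1 above it in all 4, while vehicle replicate 3 is above the other vehicle arrays for Igfbp1 and Sgk1.

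Most Kupffer and macrophage genes had negative values that did not pass the test. All 29 listed genes were measured and lay above the median of all probe sets. Of them, 22 had a negative log2 fold change (median -0.17, against -0.017 over all genes, of which 44% were positive). Among all 29, 1 rose and 0 fell, a called share of 3.45% against 4.51% over all genes. Their summed intensity ran from 10346 to 15744 in the 2BE arrays and from 12397 to 18236 in the vehicle arrays. Spic had intensities of 85.8, 75.3, 126 and 113 in the 2BE arrays, against 55.4, 43.5 and 63.2 in the vehicle arrays (0.86 ± 0.20, adjusted p = 0.0178). Spic encodes a transcription factor of iron-recycling macrophages that haem is known to induce, and its arms did not overlap. Csf1r had intensities of 846, 725, 1243 and 1201 in the 2BE arrays, against 1594, 1146 and 2193 in the vehicle arrays (-0.70 ± 0.21, adjusted p = 0.0765). Csf1r encodes the receptor for the macrophage growth factor CSF-1, and its arms overlapped. Clec4f had intensities of 734, 532, 847 and 849 in the 2BE arrays, against 1016, 821 and 1040.1 in the vehicle arrays (-0.39 ± 0.16, adjusted p = 0.190). Clec4f, a lectin found on Kupffer cells in mice, also had overlapping arms. The other Kupffer markers named ran in either direction. The macrophage marker Adgre1 stood at -0.38 ± 0.14, adjusted p = 0.160 and the Kupffer cell phagocytic receptor Timd4 at -0.21 ± 0.17, adjusted p = 0.579. The haemoglobin-haptoglobin receptor Cd163 stood at -0.55 ± 0.21, adjusted p = 0.172, the complement receptor Vsig4 at -0.52 ± 0.22, adjusted p = 0.213 and the scavenger receptor Marco at 0.60 ± 0.49, adjusted p = 0.597. With the replicate block, 4 members passed lower: Csf1r (adjusted p = 0.00506), Cd163 (adjusted p = 0.0115), Vsig4 (adjusted p = 0.0315) and the cathepsin S gene Ctss (adjusted p = 0.0371), and Spic remained higher (adjusted p = 0.0422). With 1 array left out, a call was lost for Spic without 2BE replicate 4 or vehicle replicate 1 or 2 (adjusted p = 0.0519 to 0.0865) and gained for Csf1r without vehicle replicate 2 (adjusted p = 0.0253) and Adgre1 without 2BE replicate 3 (adjusted p = 0.0317). Cd68, a lysosomal macrophage protein, passed higher without 2BE replicate 2 (0.59, adjusted p = 0.0414).

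Of 30 endothelial identity genes 2 rose and 2 fell (median -0.014). Lyve1 had intensities of 309.6, 496, 294 and 572 in the 2BE arrays, against 131, 113 and 248 in the vehicle arrays (1.37 ± 0.34, adjusted p = 0.0278). Lyve1 encodes a hyaluronan receptor of sinusoidal endothelium. Esam, an adhesion molecule of endothelial junctions, stood at 0.59 ± 0.16, adjusted p = 0.0393. Kdr had intensities of 362, 215, 282 and 249 in the 2BE arrays, against 343, 467 and 434 in the vehicle arrays (-0.59 ± 0.14, adjusted p = 0.0215). Kdr encodes the VEGF receptor 2, and its arms overlapped, with 2BE replicate 1 inside the vehicle range. The transcription factor gene Sox18 stood at -0.46 ± 0.13, adjusted p = 0.0499. The sinusoidal scavenger receptor gene Stab2 and the junction gene Pecam1 did not pass (Stab2 -0.16 ± 0.094, adjusted p = 0.396; Pecam1 0.31 ± 0.12, adjusted p = 0.187). All 4 calls ended with the block (adjusted p = 0.0556 for Lyve1, 0.112 for Esam, 0.139 for Kdr and 0.157 for Sox18) and without 2BE replicate 4. Single arrays decided the calls of Lyve1 without 2BE replicate 2 or 4 or vehicle replicate 1 or 2 (adjusted p = 0.0660 to 0.118), Esam without 2BE replicate 3 or 4 or vehicle replicate 1 or 3 (adjusted p = 0.0504 to 0.192), Kdr without 2BE replicate 4 or vehicle replicate 2 or 3 (adjusted p = 0.0681 to 0.0960) and Sox18 without 2BE replicate 2 or 4 or vehicle replicate 2 or 3 (adjusted p = 0.0964 to 0.174).

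Of 29 genes of endothelial activation, flow and clotting control 5 rose and 0 fell (median 0.027). Thbd had intensities of 150, 332, 496 and 523 in the 2BE arrays, against 38.1, 59.6 and 65.6 in the vehicle arrays. The lowest 2BE value, that of replicate 1, lay well above the highest vehicle value. Thbd encodes thrombomodulin, which turns thrombin towards activation of protein C (log2 fold change 2.65 ± 0.34, adjusted p = 0.000623). Nos3 had intensities of 171, 178, 198 and 206 in the 2BE arrays, against 98.3, 139 and 96.0 in the vehicle arrays (0.77 ± 0.11, adjusted p = 0.00137). Nos3 encodes the endothelial nitric oxide synthase. Icam1 had intensities of 333, 238, 285 and 314 in the 2BE arrays, against 160, 181 and 207 in the vehicle arrays (0.67 ± 0.13, adjusted p = 0.00616). Icam1 encodes an adhesion molecule for leukocytes, and the arms of both genes were apart. The flow-responsive factor gene Klf4 rose at an intensity below the median of all probe sets (0.83 ± 0.19, adjusted p = 0.0215), the endothelin receptor gene Ednrb stood at 0.45 ± 0.11, adjusted p = 0.0311, and the flow-responsive factor gene Klf2 did not pass (0.55 ± 0.17, adjusted p = 0.0922). With 1 array left out, calls were lost for Klf4 without 2BE replicate 3 or vehicle replicate 2 or 3 (adjusted p = 0.0543 to 0.0924) and Ednrb without 2BE replicate 3 or 4 or vehicle replicate 1 or 3 (adjusted p = 0.0821 to 0.156), leaving 3 of the list without 2BE replicate 3, and the block ended that of Ednrb (adjusted p = 0.0924).

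**Figure D5:**
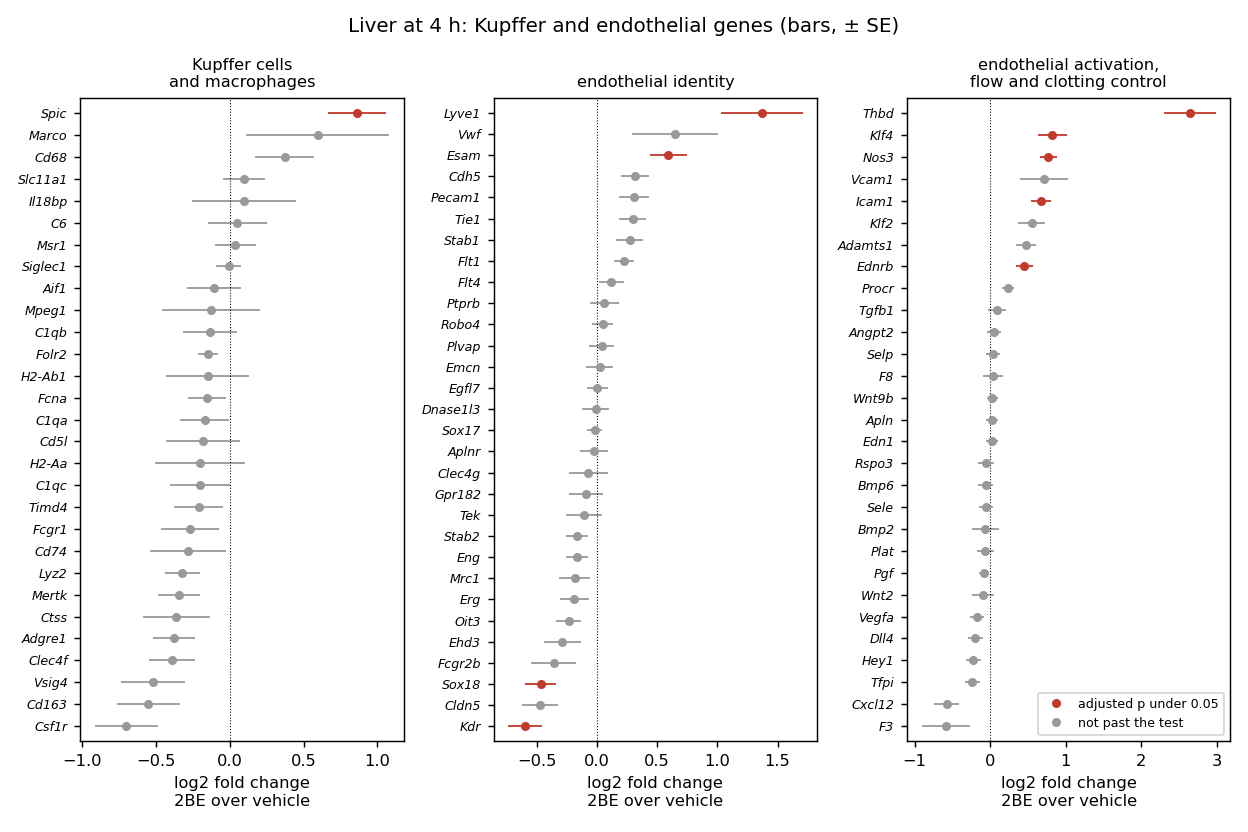
Log2 fold change of 2BE over vehicle for the measured members of the Kupffer and macrophage, endothelial identity and endothelial activation lists, sorted by value. Bars are standard errors, and red marks an adjusted p under 0.05; 22 of the 29 Kupffer genes lie below 0, and Thbd is far above every other endothelial gene.

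Among markers of other cell types that a liver piece can hold, the main fit called 1 adipocyte gene. Of 15 stellate cell and fibroblast genes, 6 cholangiocyte, 11 lymphocyte, 9 erythroid and platelet and 6 pancreatic acinar genes, 0 passed in limma, and 1, 1, 3, 2 and 1 had an unadjusted p under 0.05. The stellate cell retinol acyltransferase gene Lrat stood at -0.82 ± 0.24, adjusted p = 0.0721, and it passed with 1 array left out, 2BE replicate 1 (adjusted p = 0.00246). The lymphocyte markers, 3 of 11 above the median of all probe sets, had 9 negative and 2 positive values. Their summed intensity was lower in every 2BE array (399 to 429) than in the vehicle arrays (445 to 487). On that list Ptprc passed lower with the block (-0.58, adjusted p = 0.0159). The erythroid gene Epor passed lower without vehicle replicate 3 (-0.38, adjusted p = 0.0109). Of 5 adipocyte genes 1 rose. Fabp4 had intensities of 390, 483, 459 and 710.2 in the 2BE arrays, against 129, 169 and 252 in the vehicle arrays (1.49 ± 0.19, adjusted p = 0.000523, other probe sets 0.015 to 1.06). Fabp4 encodes a fatty acid binding protein of adipocytes, macrophages and capillary endothelium. The adipocyte hormone Adipoq lay near the lower end of the intensity range and did not pass (-0.19 ± 0.078, adjusted p = 0.190), and the adipocyte genes Adipoq, Lep and Cidea lay below the median of all probe sets. The summed intensity of the 5 genes, Fabp4 included, ran from 522 to 873 in the 2BE arrays and from 264 to 390 in the vehicle arrays. That sum holds the rise of Fabp4 itself and so is no separate measure of adipocyte genes. The part of adipocytes in the value of Fabp4 was not tested.

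Set against the 2BE effect in the liver at 7 d, 49 genes had an effect at 4 h that differed (0.269% of 18193), 31 with a higher value at 4 h (0.17%) and 18 with a lower one (0.0989%). Hmox1 had a log2 fold change of 0.64 ± 0.19 at 7 d, so that the effect at 4 h was the larger (difference 2.60 ± 0.28, adjusted p = 0.000703). Thbd stood at 0.34 ± 0.30 at 7 d (difference 2.31 ± 0.46, adjusted p = 0.0456). For several metabolic genes the difference did not pass. Igfbp1 stood at 1.36 ± 0.34 at 7 d (difference 1.69 ± 0.52, adjusted p = 0.244), Socs2 at -0.78 ± 0.42 (difference -2.35 ± 0.64, adjusted p = 0.186) and Arrdc3 at -2.02 ± 0.62 (difference -1.54 ± 0.94, adjusted p = 0.666). Cyp7a1 had values of opposite sign, -1.28 at 4 h and 1.71 ± 0.48 at 7 d, neither of which passed, and the difference did not pass either (-2.99 ± 0.73, adjusted p = 0.120). Pck1, not called at 4 h, was higher at 7 d (0.91 ± 0.16, adjusted p = 0.0147), and Marco likewise (2.19 ± 0.43, adjusted p = 0.0236), but their differences did not pass (Pck1 -0.61 ± 0.25, adjusted p = 0.427; Marco -1.59 ± 0.65, adjusted p = 0.426). The count of genes whose effect differed was 25 without 2BE replicate 2, 18 without 2BE replicate 4, 17 without vehicle replicate 1 and 111 without 2BE replicate 1.

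Set against the spleen at 4 h, 323 genes had a 2BE effect that differed (1.78%), 153 with a higher value in the liver (0.841%) and 170 with a lower one (0.934%). Arrdc3 had a log2 fold change of 0.50 ± 0.16 in the spleen (difference -4.06 ± 0.38, adjusted p = 8.1e-05) and Socs2 one of -0.035 ± 0.16 (difference -3.09 ± 0.57, adjusted p = 0.0106). Igfbp1 stood at -0.048 ± 0.10 in the spleen (difference 3.10 ± 0.47, adjusted p = 0.00291), Cyp2b10 at -0.079 ± 0.092 (difference 2.90 ± 0.42, adjusted p = 0.00193) and Thbd at 0.48 ± 0.16 (difference 2.16 ± 0.46, adjusted p = 0.0281). In these 5 genes the effect in the liver lay further from 0 and the difference passed. Whether Igfbp1 and Cyp2b10 were expressed in the spleen was not tested, and a gene hardly expressed there also gives a value near 0. Ddit4 was higher in the spleen as well (1.71 ± 0.39, adjusted p = 0.0117), as was Sgk1 (1.35 ± 0.12, adjusted p = 8.0e-07), and their differences did not pass (Ddit4 0.99 ± 0.78, adjusted p = 0.685; Sgk1 0.77 ± 0.52, adjusted p = 0.612). For Hmox1, at 0.83 ± 0.38 in the spleen, the difference did not pass either (2.41 ± 0.64, adjusted p = 0.0802). Irs2 rose in the spleen (0.45 ± 0.097, adjusted p = 0.00741), and its value in the liver was 0.48 (difference 0.023 ± 0.20, adjusted p = 0.983). The count was 214 without vehicle replicate 1.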

How the data were processed

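The authors deposited one table of linear intensity values for 45101 probe sets of an Affymetrix mouse array, made with RMA per the submitters' processing notes; a version of RMA was not given in the sources used here. Values ran from 6.16 to 47798. The number of arrays limits precision. Of the probe sets, 34945 had 1 gene symbol, 932 several and 9160 none, and 64 controls were left out. For each of 18193 genes, the probe set that was brightest on average across the 44 arrays was kept. Other probe sets are given beside some genes only, and they ranged widely in other called genes too. Their log2 fold changes ran from 0.052 to 0.99 for Fkbp5, -0.085 to 0.90 for Tsc22d3 and 0.17 to 1.74 for Pim3. Those of Thrsp ran from -0.041 to 2.67, of Slc38a2 from 0.17 to 1.10 and of Slc16a10 from 0.018 to 0.92. Those of Slc25a30 ran from -1.43 to 0.040 and of Cldn1 from -1.22 to -0.0093. Log2(intensity + 1) went into limma 3.58.1 under R 4.3.3 (lmFit and eBayes, two-sided) over the 16 liver arrays in 4 groups, or over 15 arrays for the contrast with the spleen, with Benjamini-Hochberg adjustment over all genes and a threshold of 0.05. The fit was tested on simulated data. Effects within the spleen at 4 h, with their SE and adjusted p, came from a separate limma fit over all spleen arrays, those of the later time included.

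The 39 gene lists (667 of 728 genes measured) and the members described were chosen with earlier results of these data known, so lists carry counts and medians and no test. Some genes stand on more than 1 list and were counted in each. Named genes were the 10 largest rises and falls among called genes with arms apart and a higher arm above the median log2 intensity of 5.42, up to 6 such members per list, and key genes of each list. Of the first 2 kinds, 1 gene is not reported here; values are given for 67 of the 117 measured key genes, and the other 50 did not pass. Same-numbered 2BE and vehicle arrays correlated in their deviations from the group means at 0.132, 0.283 and 0.146, each over 0.1, so the block fit was taken as a paired alternative to the main fit, which has no block. Differently numbered pairs reached 0.225 (2BE replicate 1, vehicle replicate 2) and 0.370 (2BE replicate 4, vehicle replicate 3). Alternatives were the block, the 7 arrays alone, each array left out, other offsets, a low-value filter, a further quantile normalization, eBayes options and other probe set rules.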

Additional observations from a re-analysis of the deposited data

Results flagged for a closer look

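Among the 143 genes named with values, 8 had 1 2BE array whose distance to the nearest other 2BE array took up more of the arm's range than Dixon's 95% critical value for 4 arrays allows; chance alone flags about 1 in 20 such groups. 2BE replicate 1 was the lowest of its arm for Angptl4 (gap over range 0.866), Irs2 (0.907) and Aass (0.874). 2BE replicate 4 was the lowest for Cpt1a (0.909) and Vnn1 (0.838) and the highest for Arrdc4 (0.908), Esam (0.886) and Cxcl2 (0.902).

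For 15 genes the 2BE effect at 4 h was set against the liver at 7 d and the spleen at 4 h by a test of the difference itself. The difference of log2 fold changes between the liver at 4 h and at 7 d passed for Hmox1 (2.60) and Thbd (2.31). That between the liver and the spleen at 4 h passed for Igfbp1 (3.10), Socs2 (-3.09), Arrdc3 (-4.06), Cyp2b10 (2.90) and Thbd (2.16).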

How the results depend on the processing

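With only the 7 arrays compared, 176 genes passed, 137 higher and 39 lower, against 821 over all liver arrays; this fit ended 50 of the 96 calls of named genes, those of Thrsp, Hsd3b5, Slc25a30, Fbxo21, Cldn1, Lpin1, Gpt2, Foxo1, Trib1, Idh3a, Hgd, Igfals, Sgk1, Tiparp, Zbtb16, Tsc22d3, Bcl3, Slc16a10, Klf9, Ddit4, Rictor, Mthfd2, Atf3, Slc3a2, Sqle, Hsd17b7, Nnmt, Adh4, Etnppl, Id1, Smad7, Smad1, Bmpr2, Ncoa4, Slc40a1, Nfil3, Per1, Rora, Ccl3, Spic, Lyve1, Esam, Kdr, Sox18, Nos3, Icam1, Klf4, Ednrb, Fos and Ier3. Under the replicate block 471 genes passed. It ended 27 of the 96 calls and added 4, each given beside its gene, and changed no other named call. With 1 array left out, the count ran from 466 to 1090 for the liver at 4 h, from 17 to 111 for the difference from the liver at 7 d (49 with all arrays) and from 214 to 340 for the difference from the spleen (323 with all arrays). These 2 differences kept 38 and 241 genes with the block. The other 7 alternatives gave 768 to 933 genes for the liver at 4 h, 37 to 52 and 287 to 390 for the 2 differences. Among named genes, an offset of 16 ended the calls of Igfals, Id1, Smad7 and Sox18, no offset that of Klf9, and eBayes with trend and robust options those of Id1 and Lyve1. The further quantile normalization ended those of Hgd, Klf9, Rictor, Id1 and Smad7 and added that of Cps1. Reading each gene by its brightest probe set in these 7 arrays ended those of Mthfd2 and Lifr, and the mean of all probe sets ended those of Hgd, Tsc22d3, Klf9, Rictor, Lifr, Etnppl, Id1, Smad7, Bmpr2 and Sox18 and added that of Lrat. None of the 96 called genes among those named changed sign under any of the 16 alternatives, and 39 of the 96 kept their call under all of them. The other called genes were not checked for this. The causes of these shifts were not tested. Low intensities, such as those of Klf4 and Ccl3, and arms of 4 and 3 arrays limit what can be detected.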
